A study of Mus musculus with 16 samples.

Results

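Interrupted regions are stretches of the mouse genome that carried acetylated histone H3 lysine 27 (H3K27ac) in the small-intestinal epithelium at an earlier point of a developmental series, lacked it at a point between, and carried it again later. They were chosen by their own H3K27ac peaks: overlapping or touching peaks of the 8 deposited lists were merged into regions, and at least 1 bp of peak in a region counted as presence in that library. Of 79482 merged regions, 35967 were in both or neither library of every group, and 330 of these, or 0.918%, were present in an earlier and a later group and absent from at least 1 group between. Presence and absence are therefore the criterion of selection and not a result.

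The study used ChIP-seq, in which chromatin bound by an antibody is sequenced, on 4 groups with 2 libraries each. They are ordered here as epithelium of embryonic days E12.5 and E14.5, adult Lgr5+ intestinal stem cells (ISC) and adult enterocytes, the absorptive cells of the epithelium. All mice were of a mixed C57BL/6 CD1 strain. Embryonic epithelium was sorted as positive for the epithelial surface protein EpCAM and negative for CD31, CD45 and the dead-cell dye DAPI, and enterocytes were sorted with the same gate from adult intestine. The adult animals were Lgr5EGFP-Cre-ERT males of postnatal day 60, and ISC were taken from them as the cells with high EGFP from the Lgr5 reporter. Each library was made from 250000 sorted cells with 1 antibody from Abcam. The 2 libraries of a group are described as biological duplicates, while how many animals stand behind each, and the sex of the embryos, the sources used here do not give. The order is one of age and differentiation state across separate animals, so no cell was followed through a gap. The gate used for enterocytes holds no marker that parts them from other epithelial cells.

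H3K27ac marks promoters and enhancers that are in use, and it is added and removed quickly as transcription factors arrive and leave. In the gut, the early epithelium of the embryo is a proliferating, still unspecialised layer that later folds into villi, whereas in the adult the stem cells sit at the crypt base and give rise to the enterocytes that clothe the villi. Many intestinal enhancers are shared between crypt and villus, and others are opened for one state only. In these bulk libraries a region carried by fewer cells and a region with less acetylation per cell cannot be told apart.

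The libraries held 34.6 to 54.6 M ChIP tags and 35614 to 52510 peaks, which covered 38.8 to 76.1 Mb. Replicates differed most in ISC, where peaks covered 51.2 Mb in replicate 1 and 76.1 Mb in replicate 2, and at E12.5, with 43.6 and 59.99 Mb. These differences bear on the count directly. A further 1260 regions missed the criterion by 1 library. A change in ISC replicate 2 alone would have admitted 365 of them, and in 360 it had a peak (median 706.5 bp). A change in E12.5 replicate 1 alone would have admitted 245, of which it lacked 243. With ISC replicate 2 left out 718 regions were interrupted, with E12.5 replicate 1 left out 577, and with E14.5 replicate 1 left out 538. Such counts rise by construction, because the affected group then has 1 library to satisfy in place of 2. The defining genes of the labelled cell types were not examined here, because the gene table supplied is on another genome build. For the same reason the text uses mm9 positions and no gene names.

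With all libraries, ISC lacked 227 of the 330 regions (68.8%), and E14.5 lacked 128 (38.8%), the 25 regions that skipped both included. Present at E14.5 and in enterocytes only were 116 regions. There were 87 regions of E12.5 and ISC and 86 regions of E12.5, E14.5 and enterocytes. Only 25 regions were shared by E12.5 and enterocytes alone, and 16 by E12.5, ISC and enterocytes. This order depended on single libraries. Without E12.5 replicate 1, E14.5 lacked 347 of 577 regions and ISC 282. Without E14.5 replicate 1 the counts were 295 and 274 of 538, and without ISC replicate 1 they were 263 and 230 of 468. In these 3 settings E12.5 and ISC was the most frequent pattern, with 239, 222 and 214 regions against 118, 157 and 118 of E14.5 and enterocytes. Merging peaks within 1 kb put E12.5, E14.5 and enterocytes first, with 72 regions against 69. By comparison, the 10 uninterrupted patterns held between 1036 regions (E14.5 and ISC) and 12282 regions (all 4 groups).

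**Figure D1:**
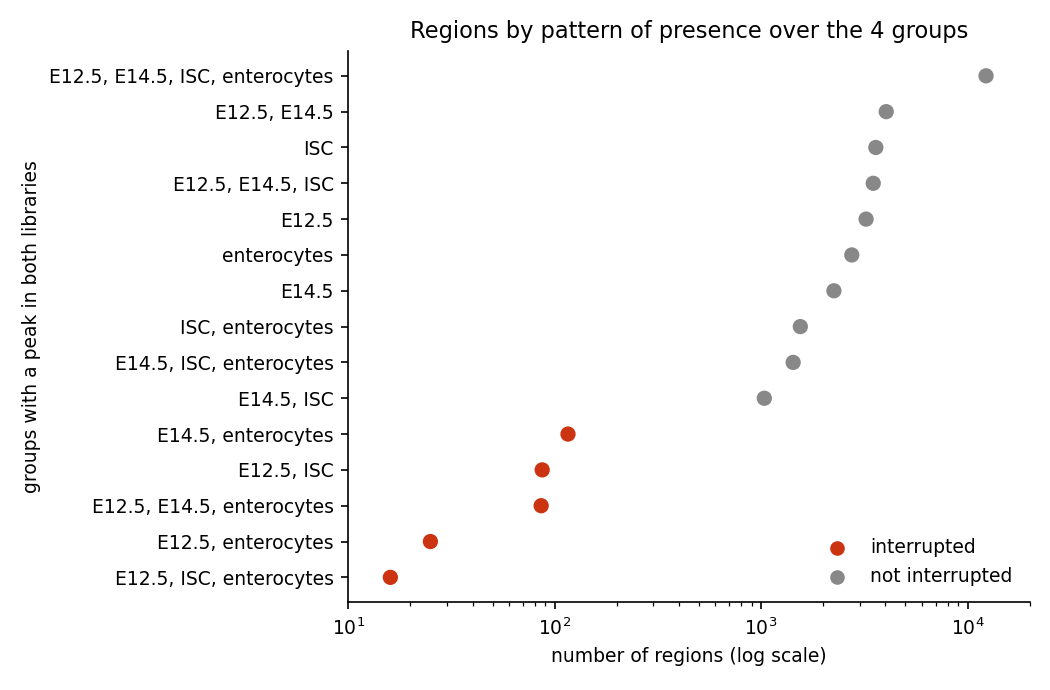
Number of regions with each pattern of presence over the 4 groups, on a logarithmic axis; each point is 1 pattern and red marks the 5 interrupted ones. The interrupted patterns hold 16 to 116 regions each, below each of the 10 patterns without a gap, which hold 1036 to 12282.

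Return after a loss was uncommon at every step. Of 3351 regions that were present at E12.5 and absent at E14.5, 103 (3.07%) were present again in ISC, and of the 3248 that were still absent there 25 (0.770%) reappeared in enterocytes. Of 4121 regions held at both embryonic stages and lost in ISC, 86 (2.09%) came back in enterocytes. Regions that first appeared at E14.5 and were lost in ISC came back more often, in 116 of 2368 cases (4.90%). Seen from the enterocytes, 227 of the 2975 regions they held without ISC (7.63%) had been present in the embryo. Seen from the stem cells, 103 of 5244 regions held without E14.5 (1.96%) had been present at E12.5. Regions that returned in ISC were kept in enterocytes in 16 of 103 cases (15.5%), against 1548 of 5141 (30.1%) for regions that first appeared in ISC. These shares follow from the patterns that define the regions, so they carry no test.

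Interrupted regions were spread over the autosomes. Chromosome 2 held the most, with 30, and chromosome 18 the highest share of its regions in both or neither library of every group, with 15 of 1125 (1.33%). Apart from the Y chromosome, which had only 2 such regions and none interrupted, the lowest share was on the X chromosome, with 1 of 829 (0.121%). That region, chrX:149289841-149290601, was covered by 619 and 532 bp of peak at E14.5 and by 360 and 535 bp in enterocytes.

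The merged length of the interrupted regions ran from 375 to 8124 bp with a median of 1333 bp. There were 107 under 1 kb and 17 over 4 kb, and regions of all 4 groups had a median length of 2871 bp. Regions held by 1 group alone were shorter than the interrupted ones in 4 of 4 cases, with medians of 642 bp for E12.5, 550 bp for E14.5, 930 bp for ISC and 703 bp for enterocytes. With 2 groups, however, interrupted patterns had medians of 1065 to 1207 bp and uninterrupted ones longer medians, of 1435 to 1763 bp. With 3 groups the medians were 2005.5 and 2164 bp for interrupted patterns and 1976 and 2463 bp for uninterrupted ones. The smallest length covered in any library that had the region was 207 bp for the regions just inside the criterion, which is the fragment length in E12.5 replicate 1 and ISC replicate 1 and the length of the shortest peak in both lists. Just outside it, the smallest peak that removed a region was 219 bp, in ISC replicate 2.

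Regions of E12.5, E14.5 and enterocytes were the broadest of the larger patterns, with a median of 2005.5 bp, and covered a median of 765 and 1315 bp in the E12.5 libraries, 1273 and 1083 bp at E14.5, and 1032 and 836 bp in enterocytes. Those of E14.5 and enterocytes alone covered a median of 577.5 and 466.5 bp at E14.5 and 740 and 691.5 bp in enterocytes. Regions of E12.5 and ISC covered 331 and 570 bp at E12.5 and 460 and 989 bp in ISC, so that in both groups the replicate with the greater total also had the longer cover. The 16 regions of E12.5, ISC and enterocytes covered 470 and 682 bp, then 1002.5 and 1466 bp, then 1486 and 1311 bp.

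**Figure D2:**
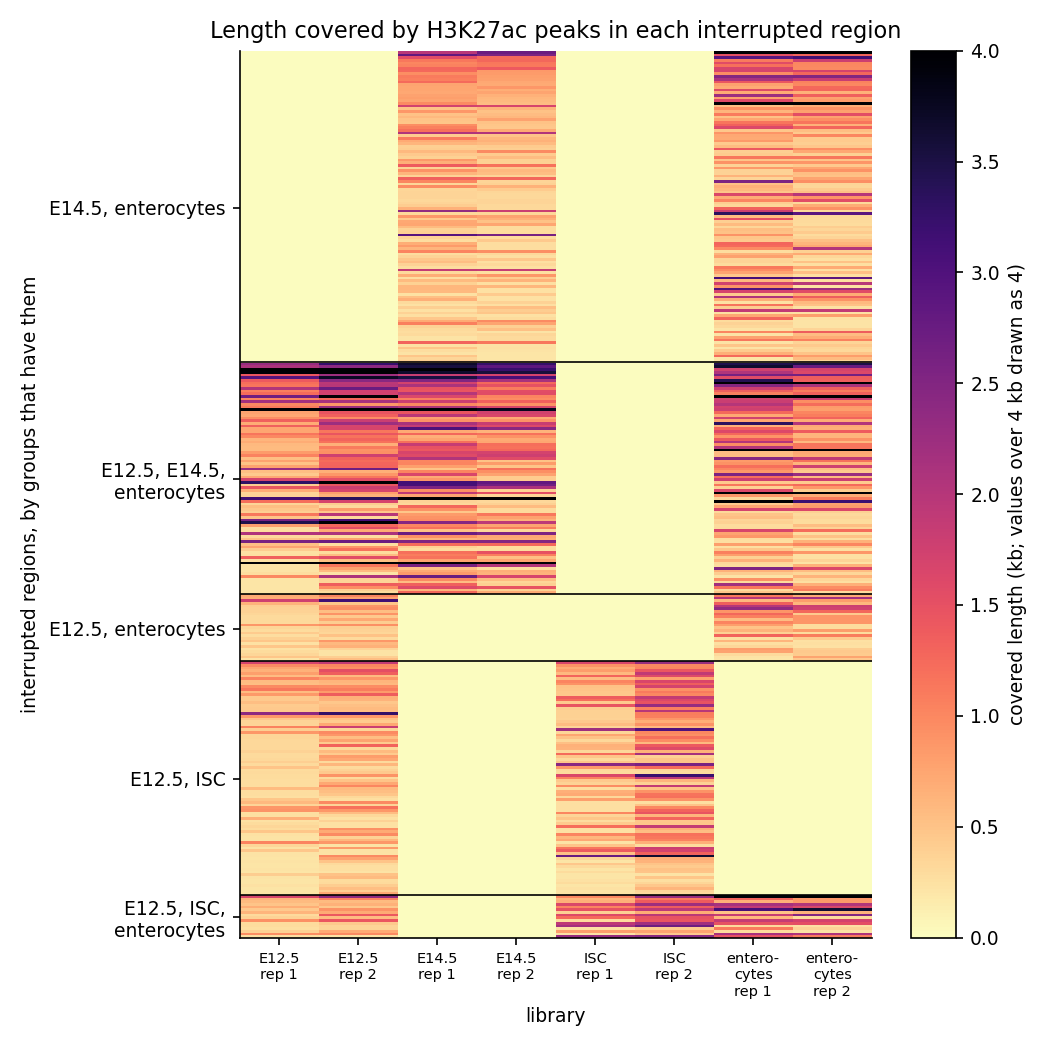
Length covered by peaks (kb, colour) in each of the 330 interrupted regions (rows, grouped by pattern and sorted by their smallest cover) in each of the 8 libraries (columns). The empty blocks are the groups whose absence defines a pattern, and the longest embryonic cover, up to 7491 bp, lies among the regions of E12.5, E14.5 and enterocytes.

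Rank within a library's own list describes strength without comparing scores between libraries. The score is the authors' −log10 q of the strongest peak in a region, and the 100th percentile is the strongest peak of the list. Regions of E12.5, E14.5 and enterocytes stood at median percentiles of 42.0 to 57.2 over their 6 libraries. Regions of E14.5 and enterocytes alone stood at 29.7 to 46.2. Those of E12.5 and ISC ranged from 23.0 in E12.5 replicate 1 to 48.8 in ISC replicate 2. Regions of all 4 groups stood at 77.5 to 87.6. Low ranks were not particular to interrupted regions. Regions of E12.5 alone stood at 25.6 and 40.6, of E14.5 alone at 29.9 and 26.2, of ISC alone at 27.2 and 48.5, and of E14.5 and ISC at 37.8 to 56.7.

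The lowest rank among the libraries that had a region was taken next. At or above the 25th percentile in every library that had them were 98 of the 330 (29.7%), at or above the 50th were 10 (3.03%), and at or above the 75th were 0. The same counts for regions of all 4 groups were 88.9%, 70.7% and 38.9% of 12282. Of the 10 above the median everywhere, 9 were regions of E12.5, E14.5 and enterocytes and 1 was a region of E12.5 and ISC.

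**Figure D3:**
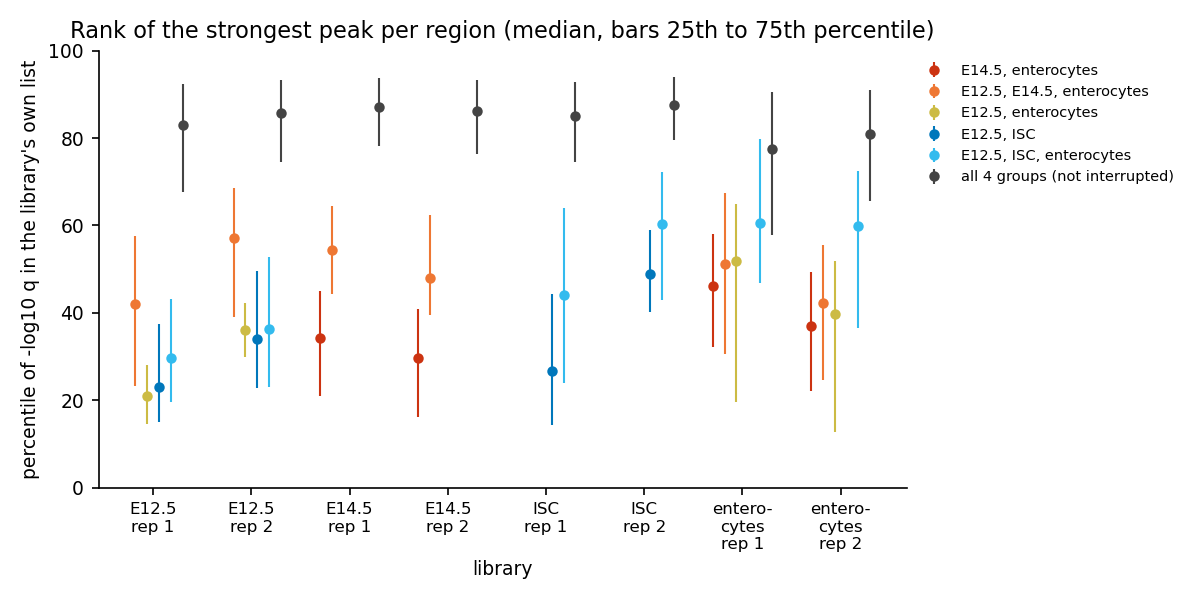
Percentile of −log10 q within a library's own peak list for the strongest peak of a region (points are medians, bars run from the 25th to the 75th percentile) by library, for the 5 interrupted patterns and, in grey, regions of all 4 groups. The interrupted patterns lie at medians of 20.8 to 60.5 and the uninterrupted regions at 77.5 to 87.6.

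A stricter criterion asked for a peak with −log10 q of at least 10 in every library of the groups that had a region and for no peak of any strength in the gap. It left 20 of the 330 regions, of which 15 were present at E12.5, E14.5 and in enterocytes, 3 at E12.5 and in ISC and 2 at E14.5 and in enterocytes. The 15 covered a median of 1332 and 1950 bp in the E12.5 libraries, 1786 and 1551 bp at E14.5 and 1740 and 1302 bp in enterocytes.

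The locus with the most interrupted regions was on chromosome 2, chr2:13399237-13415488, with 4 in 16252 bp. All 4 were present at E12.5, at E14.5 and in enterocytes and absent from ISC, and 3 of them met the stricter criterion. Over the whole span, peaks covered 5422 and 7560 bp in the E12.5 libraries, 7356 and 6303 bp at E14.5, 0 and 0 bp in ISC, and 14411 and 13283 bp in enterocytes. Both ISC libraries were empty, and both enterocyte libraries lay above all 4 embryonic ones.

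Within that locus the regions differed in size and shared the order of groups only in part. The longest, chr2:13411689-13415488, was covered by 2293 and 3249 bp at E12.5, 3674 and 3254 bp at E14.5, and 3452 and 3489 bp in enterocytes. The E14.5 and enterocyte values overlapped there. In the shortest, chr2:13399237-13400891, the cover was 744 and 1134 bp at E12.5, 709 and 640 bp at E14.5 and 1611 and 1389 bp in enterocytes, so both enterocyte libraries lay above the embryonic ones. The nearest ISC peak lay 29279 and 29167 bp from the longest region in the 2 libraries and 43876 and 43764 bp from the shortest. Peaks in the flanks of chr2:13399237-13400891, taken as the 20 kb on each side, covered 4678 and 6426 bp at E12.5, 7547 and 6132 bp at E14.5, 0 bp in both ISC libraries and 15704 and 13153 bp in enterocytes. These flanks include the other interrupted regions of the locus, which the selection required to be empty in ISC. Their values are therefore in part the selection itself.

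A locus on chromosome 16, chr16:34029225-34071987, held 3 interrupted regions. Its first, chr16:34029225-34033568, was covered by 2093 and 2382 bp at E12.5, 3542 and 2864 bp at E14.5 and 3641 and 2754 bp in enterocytes, and met the stricter criterion. Here the ISC libraries differed nearby: the nearest peak lay 39197 bp away in replicate 1 and 1890 bp away in replicate 2, and over the whole span they held 0 and 3209 bp. The last, chr16:34069205-34071987, was longest at E12.5, with 2287 and 2698 bp, against 494 and 1183 bp at E14.5 and 1015 and 536 bp in enterocytes. Between them lay chr16:34067418-34068967, absent from E14.5 too, with 873 and 922 bp at E12.5 and 799 and 296 bp in enterocytes.

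A locus on chromosome 17, chr17:31447846-31518174, also held 3, in a span that ISC did mark. Over the span the ISC libraries had 14052 and 16243 bp of peaks, about as much as the E14.5 libraries with 15408 and 14426 bp. Its region chr17:31447846-31450623 covered 2051 and 2105 bp at E12.5, 2720 and 2541 bp at E14.5 and 764 and 272 bp in enterocytes. Its neighbours chr17:31516146-31516965 and chr17:31517027-31518174 were both present at E12.5 and in enterocytes only. The second of them covered 707 and 1027 bp at E12.5 and 1117 and 712 bp in enterocytes, ranges that overlap.

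Loci with several members were the exception. Chained at distances up to 100 kb, the 330 regions formed 288 loci, of which 252 held 1 region, 31 held 2, 4 held 3 and 1 held 4. The 78 regions with company made up 23.6%. Of the 36 loci with company, 18 held members of a single pattern, and in 28 all members had their gap in the same groups. On chromosome 3, chr3:145859177-145929655 was a locus of mixed kind. Its region chr3:145859177-145861312 skipped E14.5 and covered 948 and 973 bp at E12.5, 226 and 438 bp in ISC and 2128 and 2071 bp in enterocytes. Its region chr3:145883632-145885495 skipped ISC and covered 1332 and 1808 bp at E12.5, 910 and 901 bp at E14.5 and 735 and 693 bp in enterocytes.

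Long regions of E12.5, E14.5 and enterocytes differed in the direction of their length along the series. Region chr6:84831971-84838622 was covered by 6377 and 6508 bp at E12.5, 4340 and 3219 bp at E14.5 and 1724 and 1682 bp in enterocytes. Region chr18:8931566-8936362 was covered by 3967 and 4780 bp, then 3671 and 3557 bp, then 2034 and 1618 bp. In both, every E12.5 library lay above the E14.5 libraries and these above the enterocyte libraries, and the nearest ISC peak of chr18:8931566-8936362 was 275514 and 275324 bp away. Named after their values were seen, chr6:37344960-37352546 and chr11:78221117-78227119 were longest in enterocytes. The first covered 2686 and 4596 bp at E12.5, 1613 and 1031 bp at E14.5 and 7072 and 5663 bp in enterocytes, and the second 351 and 802 bp, then 1918 and 1542 bp, then 5849 and 5149 bp.

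Among regions of E14.5 and enterocytes alone, chr7:130387412-130392601 was covered by 1975 and 2733 bp at E14.5 and 4773 and 4550 bp in enterocytes. Region chr9:96865652-96868899 showed the same order, with 1551 and 1262 bp and then 2907 and 3133 bp. The reverse held at chr11:103544027-103547070, with 2819 and 2562 bp at E14.5 and 1502 and 1289 bp in enterocytes. The last met the stricter criterion, with no peak of E12.5 or ISC within 11 kb. At chr4:138571358-138573127 the cover was 1134 and 1272 bp and then 1106 and 1770 bp, which overlap, and peaks of the groups without the region lay close, 386 to 753 bp away.

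Regions of E12.5 and ISC are those that the embryo lost by E14.5 and the adult stem cells held without enterocytes. The one with the longest cover, by its lowest library, was chr7:148210780-148213336, at 1693 and 1881 bp at E12.5 and 1662 and 2273 bp in ISC, with percentiles from 61.0 to 73.0 in these 4 lists. Its E12.5 and ISC values overlapped. Region chr8:64302506-64303525 lay far from E14.5 peaks: it covered 979 and 1014 bp at E12.5 and 913 and 992 bp in ISC, and the nearest E14.5 peak was 63401 and 63441 bp away. E12.5 replicate 2 and both ISC libraries did have peaks in its flanks. A weaker pair, chr2:4438344-4439439 with 759 and 937 bp and then 705 and 1006 bp, and chr2:147786585-147788293 with 644 and 1529 bp and then 825 and 1422 bp, also had overlapping groups.

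The 16 regions that skipped E14.5 alone and stayed from ISC into enterocytes were led by chr11:90216147-90220472. It covered 1668 and 2357 bp at E12.5, 986 and 2268 bp in ISC and 3921 and 4326 bp in enterocytes. Both enterocyte libraries lay above the other 4, and no E14.5 peak lay within 30 kb. Region chr18:32297725-32300080 covered 494 and 647 bp, then 1631 and 2226 bp, then 2143 and 2028 bp, with both adult groups above E12.5. There the E14.5 libraries had a peak only 1482 and 185 bp outside the region. Region chr7:137998403-137999979 covered 631 and 1027 bp, then 609 and 1108 bp, then 1300 and 866 bp, and all 3 groups overlapped. Region chr7:148020765-148022146 covered 573 and 568 bp, then 661 and 1382 bp, then 667 and 845 bp, with both E12.5 libraries lowest.

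The 25 regions that skipped both E14.5 and ISC included chr3:28637978-28640308, with 676 and 758 bp at E12.5 and 1982 and 2186 bp in enterocytes. Region chr16:34983788-34987007 showed the opposite order, with 1758 and 3132 bp and then 591 and 826 bp. Region chr9:102897433-102898778 covered 634 and 480 bp and then 1346 and 600 bp, and its nearest E14.5 peaks lay only 212 and 161 bp away.

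Peaks before and after the gap mostly overlapped, which the merging of overlapping or touching peaks into regions favours. In patterns of only 2 groups the merging requires these peaks to overlap or touch in some pairing. In 298 of 330 regions (90.3%) peaks of the group last present before the gap and of the group that regained the region overlapped in every pairing of their libraries, in 30 only in some pairings, and in 2 in none. Those 2, both also present at E12.5, which was not paired there, were chr9:64041939-64044619 and chr16:20475200-20478551, named after their values were seen. Overlap in every pairing ranged from 76.0% (E12.5 and enterocytes) to 94.8% (E14.5 and enterocytes) over the interrupted patterns. In regions of all 4 groups it was 98.9% to 99.8%, depending on the groups paired. It was 96.2% in regions of E14.5, ISC and enterocytes and 97.5% in those of E12.5, E14.5 and ISC. The median distance between the strongest summits before and after the gap was 210.75 bp, against 103.5 bp between replicates of a group in the same regions. Summits lay within 500 bp in 251 regions (76.1%). By pattern the median was 157.25 bp for regions of E14.5 and enterocytes, 193 bp for those of E12.5 and ISC, 205.5 bp for those of E12.5 and enterocytes, 277.5 bp for those of E12.5, ISC and enterocytes, and 348.75 bp for those of E12.5, E14.5 and enterocytes. Regions of all 4 groups, with a median length of 2871 bp, gave 91.5 bp between E14.5 and enterocytes and 97.5 bp between E12.5 and ISC, and their peaks ranked higher in their lists. Regions of E14.5, ISC and enterocytes, which have no gap either, gave 266 bp between E14.5 and enterocytes, and those of E12.5, E14.5 and ISC gave 156.5 bp between E12.5 and ISC.

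Whether a gap was local or part of a wider silence varied. The nearest peak of the missing group, in the nearer of its 2 libraries, lay at a median of 5618 bp for the 227 regions absent from ISC, within 5 kb for 106 and beyond 20 kb for 48. For the 128 regions absent from E14.5 the median was 5631.5 bp, with 61 within 5 kb and 26 beyond 20 kb. Regions held at both embryonic stages and not regained, 4035 in number, lay at a median of 17385 bp from the nearest ISC peak, against 6463.5 bp for the 86 that were regained in enterocytes. The 86 thus sat closer to chromatin that ISC marked than the embryonic regions that stayed lost. Regions of enterocytes alone, 2748 in number, lay closer still, at a median of 4438.5 bp. Such nearness was therefore not particular to regained regions. Medians to the nearest E14.5 peak were 8754 bp for E12.5 alone, 7676 bp for ISC alone and 6387.5 bp for ISC and enterocytes. These are descriptions without a test.

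**Figure D4:**
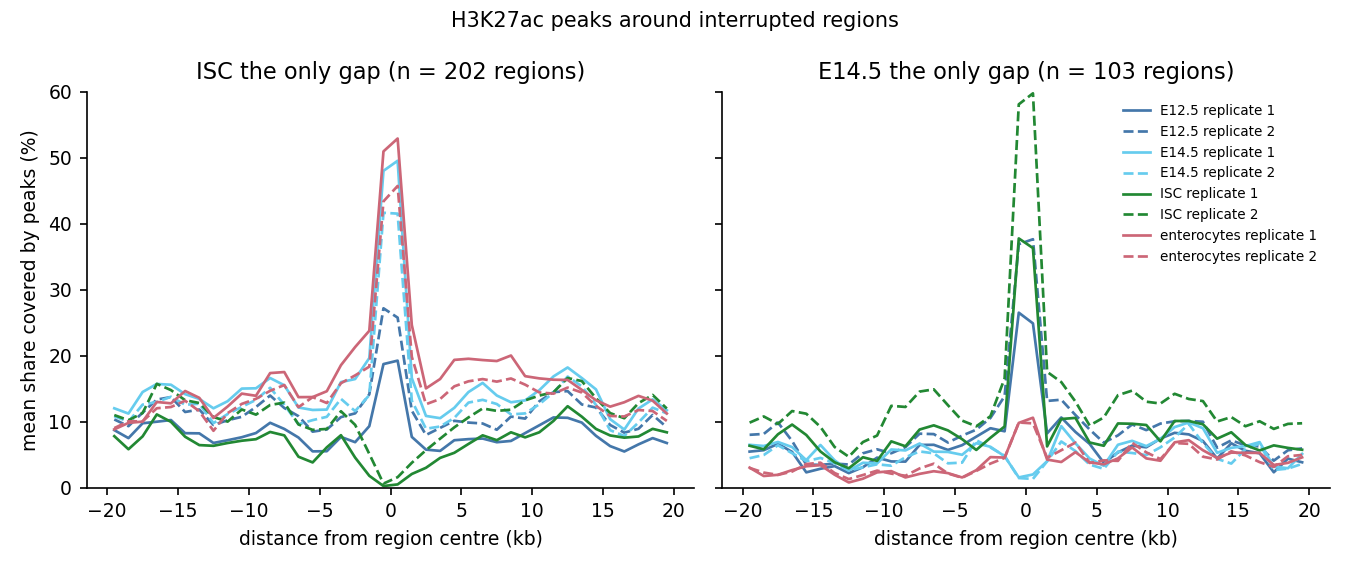
Mean share of each 1 kb bin covered by peaks against distance from the region centre, in each library, for the 202 regions with ISC as the only gap and the 103 with E14.5 as the only gap; solid lines are replicate 1 and broken lines replicate 2. In the bin just after the centre the ISC libraries stand at 0.5% and 1.6% on the left and the E14.5 libraries at 2.0% and 1.4% on the right, and bins can exceed 0 there because they reach past the shorter regions.

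The flanks moved with the regions in part. Covered length in the 20 kb on each side, the region itself left out, was scaled by each library's total and fitted with limma over 31285 regions, and calls were made at a Benjamini-Hochberg adjusted p under 0.05. Only the region itself was left out, so flanks of regions near one another can hold other interrupted regions, which the selection chose. The flanks also compare the same libraries, so the counts at a step that defined the regions are given as a description. At the step to E14.5, 35 of 119 tested regions lost there (29.4%) had lower flank cover, and the background was 11.7%. Of 108 tested regions that appeared there before their gap in ISC, 43 (39.8%) had higher cover, with a background of 18.2%. These counts depended on single libraries: the 35 became 22 without E12.5 replicate 1 and 20 without E14.5 replicate 2, and the 43 became 27, 12 and 16 without E12.5 replicate 1, E14.5 replicate 1 and E14.5 replicate 2.

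At the step to ISC, 78 of 191 tested regions lost there (40.8%) had lower flank cover, with a background of 22.8%. These were 34 of 83 held at both embryonic stages (41.0%) and 44 of 108 that first appeared at E14.5 (40.7%). Of the regions held at both embryonic stages and not regained, 57.3% had lower flank cover. Without either E14.5 replicate the 78 became 39. Of 94 tested regions regained in ISC, 35 (37.2%) had higher flank cover, with a background of 21.4%. At the step to enterocytes, 144 of 216 tested regions regained there (66.7%) had higher flank cover, with a background of 22.1%, and regions that enterocytes alone held did so in 75.6%. Of 79 tested regions of E12.5 and ISC, lost at this step, 44 (55.7%) had lower cover, with a background of 28.0%. Without scaling by the totals the balance at the last step changed, from 6907 regions higher and 8746 lower to 2093 higher and 10608 lower, and the 144 became 80.

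At some steps a pattern required no change in the region itself, although its presence or absence in both groups was still part of the selection. These counts are a description too. The 86 regions present at both embryonic stages had 83 tested flanks, of which 12 were higher and 10 lower at E14.5, near the backgrounds of 18.2% and 11.7%. The 25 regions absent from both E14.5 and ISC had 3 higher and 3 lower at the step between these groups, 12.0% each beside backgrounds of 21.4% and 22.8%. Among the 15 tested regions kept from ISC into enterocytes, 8 were higher and 1 lower, beside backgrounds of 22.1% and 28.0%.

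Values as deposited show how far apart the libraries could be. For the adjoining regions chr3:3620636-3621219 and chr3:3621340-3622886, each of which lies in the flank of the other, the flanks held no peak at E12.5. At E14.5 they held 10436 and 11066 bp for the first and 9830 and 10374 bp for the second. Flanks of chr3:145859177-145861312 held 5816 and 8578 bp at E12.5 and 1025 and 0 bp at E14.5. Flanks of chr7:136053896-136054646 likewise went from 3331 and 3910 bp to 0 and 222 bp. In all of these, which were picked for the size of their called change, no library of one group reached a library of the other.

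Around chr9:96865652-96868899 the flanks held 15882 and 12101 bp at E14.5 and none in ISC, and around chr3:145927509-145929655 they held 9294 and 7076 bp and then none. Increases at the same step were seen around chr2:170276731-170277357, with 0 bp in both E14.5 libraries and 3481 and 7251 bp in ISC, and around chr9:105431398-105433038, with 284 and 0 bp and then 4611 and 7739 bp. At the step to enterocytes the largest increases were at the chromosome 2 locus described above, in flanks that include other interrupted regions of that locus. The largest decreases were around chr7:148210780-148213336, from 12098 and 18433 bp to none, and around chr13:98889731-98891603, whose flank holds the interrupted region chr13:98886771-98889082, from 8935 and 13782 bp to none. These are the 2 regions with the greatest change in each direction at each step.

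The selection did not set which of the earlier and the regained peak was longer, and their lengths were compared in limma over all regions present in both groups. It can still bear on the comparison, because interrupted regions had short cover before the gap. All 15876 regions of E12.5 and ISC covered a median of 1771.25 bp at E12.5, so the background is not matched in length. The calls are therefore given as a description. In the deposited values, regions regained in ISC covered a median of 491.5 bp at E12.5 and 781.5 bp in ISC, a median log2 ratio of 0.48 over 103 regions, and all 15876 regions of both groups had 0.08. In 43 of the 103 both ISC libraries exceeded both E12.5 libraries, and in 10 the reverse held (41.7% and 9.71%), against 33% (5235) and 19.3% (3072) of all 15876. Scaled by the library totals and with 500 bp added, the median difference was 0.09 for the 103 and −0.16 for all. limma called 28 of the 103 longer in ISC (27.2%) and 13 shorter (12.6%), with backgrounds of 14% (2302 of 15876) and 16.7%. Without scaling 19 were longer and 2 shorter, against 2118 and 749 of all regions, where the scaled fit gave 2302 and 2656. The 13 became 7, 8 and 5 without E12.5 replicate 1, E12.5 replicate 2 and ISC replicate 1.

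The largest increase in this set was at chr8:124102938-124105364, from 252 and 223 bp at E12.5 to 2288 and 2422 bp in ISC (difference 1.75 on the scaled log2 scale, SE 0.21, limma adjusted p = 7.92e-16). Its 223 bp, in E12.5 replicate 2, is the length of the shortest peak in that list. Region chr4:148230479-148234824 went from 220 and 982 bp to 2762 and 3652 bp (1.65, SE 0.20, limma adjusted p = 2.65e-14). The largest decrease was at chr1:90358066-90361728, from 2380 and 3266 bp to 382 and 1080 bp (−1.69, SE 0.20, limma adjusted p = 7.36e-15). Region chr18:55705995-55707932 followed, from 1042 and 1806 bp to 351 and 579 bp (−1.13, SE 0.20, limma adjusted p = 3.72e-07). In this fit the spread was estimated from all regions together with no room for a region's own, so the p-values rest on that pooled spread.

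**Figure D5:**
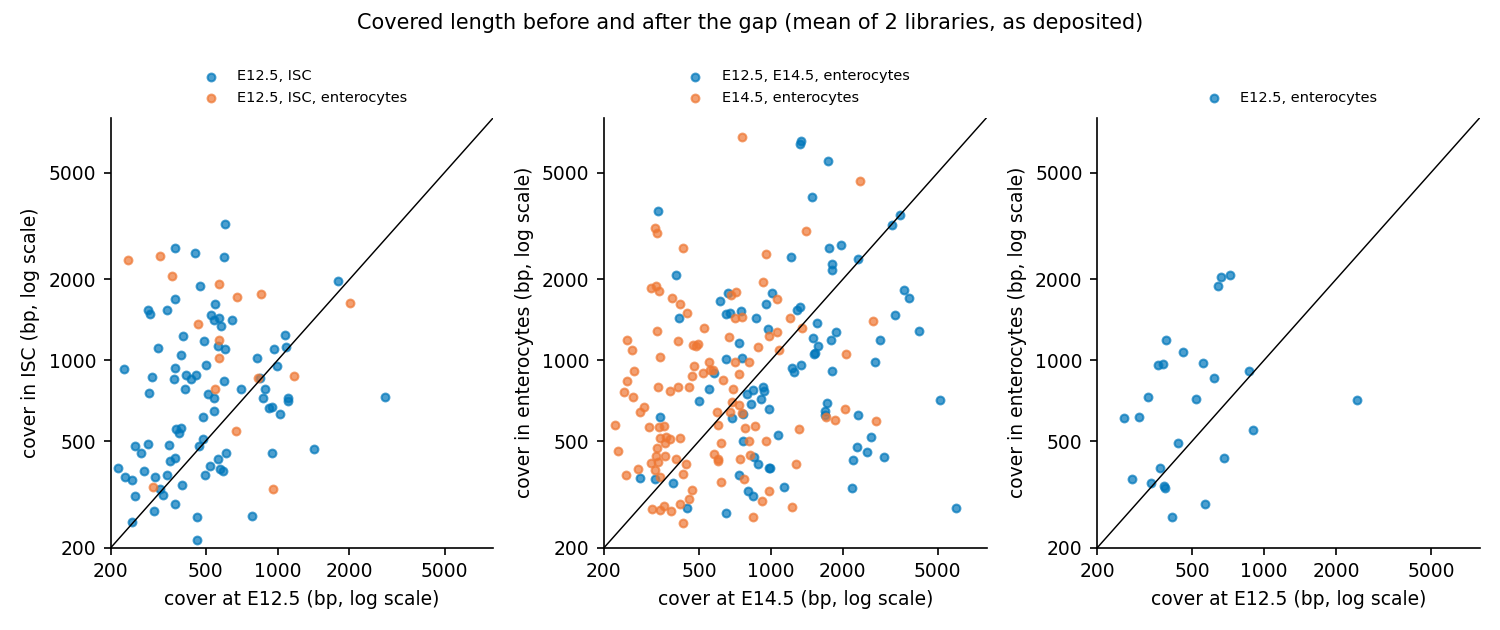
Mean covered length of the 2 libraries (bp, logarithmic axes) before the gap against after it, for regions regained in ISC (103), in enterocytes after E14.5 (202) and in enterocytes after E12.5 (25), with the line of equal length. In the left and right panels the medians after the gap, 781.5 and 708.5 bp, exceed those before it, 491.5 and 435 bp, and in the middle panel the points spread on both sides of the line.

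Regions regained in enterocytes after presence at E14.5, 202 in number, split by pattern. The 116 of E14.5 and enterocytes alone had a median log2 ratio of 0.43 in deposited cover, and in 52 both enterocyte libraries exceeded both E14.5 libraries against 23 of the reverse. The 86 that were also present at E12.5 had −0.28, with 18 and 41. As shares these were 44.8% longer and 19.8% shorter, then 20.9% and 47.7%. All 13913 regions of both groups had 19% longer (2649), 66.2% shorter (9210) and a median log2 ratio of −0.47. Enterocyte peaks also covered less in total. Scaled by the library totals and with 500 bp added, the median difference was 0.46 for the 202 and 0.13 for all. Scaled, limma called 85 of the 202 longer in enterocytes (42.1%) and 24 shorter (11.9%), with backgrounds of 31.9% and 15% (2020 of 13913). The 85 comprised 59 of the 116 and 26 of the 86, and the latter share, 30.2%, is close to the background.

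These counts depended on the scaling and on single libraries. Without scaling 52 of the 202 were longer and 40 shorter, against 1708 and 6670 of all regions, where the scaled fit gave 4439 and 2020. The 85 became 36 without E14.5 replicate 1 and 38 without E14.5 replicate 2, and the 24 became 3 without either and 38 without enterocyte replicate 1.

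The regions named next were picked for the largest called changes, so their distance from the replicate spread follows from that choice. Region chr7:88256867-88263730 went from 971 and 549 bp at E14.5 to 6675 and 6832 bp in enterocytes (3.10, SE 0.14, limma adjusted p = 0.000166). Region chr10:24552317-24556824, which covered 1211 and 1676 bp at E12.5, went from 359 and 317 bp at E14.5 to 4038 and 3182 bp in enterocytes (2.78, SE 0.15, limma adjusted p = 0.000200). Both were far longer after the gap than just before it.

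The opposite was seen at chr7:25934260-25941884, a region that covered 7361 and 7491 bp at E12.5 and 6165 and 5767 bp at E14.5 and returned with 328 and 234 bp (−2.70, SE 0.13, limma adjusted p = 0.000177). Region chr8:49983737-49989425 went from 5098 and 5126 bp at E14.5 to 321 and 1103 bp in enterocytes (−1.86, SE 0.36, limma adjusted p = 0.0101). In both, peaks in enterocytes covered only a small piece of the embryonic domain. The 234 bp at chr7:25934260-25941884, in enterocyte replicate 2, is the length of the shortest peak in that list.

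For the 25 regions present at E12.5 and in enterocytes alone, the median cover was 435 bp before and 708.5 bp after the gap, a median log2 ratio of 0.47 against −0.43 for all 12409 regions of both groups. limma called 11 longer in enterocytes (44.0%) and 1 shorter (4.00%), with backgrounds of 24.5% and 19.4%. Without scaling these were 8 and 1, against 1637 and 4215 of all regions, where the scaled fit gave 3041 and 2410. The 11 became 5 without E12.5 replicate 1 and 6 without E12.5 replicate 2, and the 1 became 0 without E12.5 replicate 2 and 2 without enterocyte replicate 1. Region chr11:62945003-62947346 rose from 373 and 948 bp to 2344 and 1742 bp (1.54, SE 0.22, limma adjusted p = 8.04e-06), and chr9:40268156-40270320 from 395 and 888 bp to 1996 and 1785 bp (1.46, SE 0.21, limma adjusted p = 7.59e-06). The shorter one was chr16:34983788-34987007, described above (−1.01, SE 0.20, limma adjusted p = 0.000361).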

How the data were processed

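H3K27ac ChIP-seq peak lists of 8 libraries were analysed, 2 in each of 4 groups taken from the labels. The submitters' processing notes name Bowtie 1.1.2, MACS2, SAMtools 1.2 and bcl2fastq 1.8.4, and the build mm9. Per the file headers, MACS 2.1.0.20140616 called narrow peaks in each library against its own input at a q-value of 0.05, keeping 1 tag per position and scaling the larger of ChIP and input to the smaller. The tags were 51 bp long. Each deposited list gives positions, the pileup signal, −log10 p, −log10 q and the fold enrichment ratio of a peak. These scores are the authors', and −log10 q alone was used, to rank and filter peaks within a list.

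Peaks were merged, and the length covered per library was computed in Python 3.11.15 with pandas 2.3.3 and numpy 2.4.6. For limma 3.58.1 (R 4.3.3), covered lengths were scaled to equal library totals and log2(covered bp + 500) was fitted (lmFit, eBayes with trend and robust). The flank fit took all 8 libraries and regions with flank peaks in at least 2 libraries, with 4 residual degrees of freedom. The length fits took the 4 libraries of the groups compared, with 2. Differences on this scale depend on the 500 bp, and none is given against a group at 0. Counts per region were not used, so depth enters only through the peak calls and no counting interval is given. The p-values measure the spread between these duplicates, which may be technical in part. In the length fits that spread is largely pooled over all regions. For enterocytes the pooled spread had a median weight of 18.6 degrees of freedom against E12.5 and 3.83 against E14.5, beside 2 of a region's own. The code was tested on simulated data.

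The regions, the lists and the tests were chosen with earlier results of these data known. Named regions were, per pattern, the 4 with the greatest smallest cover, the 3 loci with the most regions (among 4 loci tied at 3 regions, the 2 with the shortest span), and the 2 with the largest called change in each direction per comparison. Other named regions were chosen after their values were seen. Alternatives varied the peak threshold, merging, presence, flank size, pseudocount, scaling, filter, replicate block and libraries. Gene names, promoters and sequences were not used here, because the reference tables are on GRCm38.p6 and not on mm9.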

Additional observations from a re-analysis of the deposited data

How the results depend on the processing

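The count of interrupted regions rested on the peak threshold and on how presence was defined. It was 124 with peaks of −log10 q of at least 10 only (31, 3, 3, 34 and 53 for E12.5 and ISC; E12.5, ISC and enterocytes; E12.5 and enterocytes; E12.5, E14.5 and enterocytes; E14.5 and enterocytes), and 23 of the 330 overlapped one of these. With 50% of a region needed as cover it was 215 (10 of E12.5 and enterocytes, 39 of E12.5, E14.5 and enterocytes), and 43 of the 330 overlapped. Merging peaks within 1 kb gave 237, with 14 of E12.5 and enterocytes and 69 of E14.5 and enterocytes. The strict criterion gave 20 (3, 0, 0, 15 and 2 in the order above), and equal list sizes gave 331, although only 143 of the 330 overlapped those. Leaving out 1 library gave 388 to 718 regions; by pattern, in the order above, 89 to 239, 16 to 56, 25 to 52, 86 to 253 and 118 to 314.

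Of the limma counts, no scaling moved flank calls at the step to E14.5 from 3656 to 1703 regions lower and from 35 to 20 interrupted regions lower, and at the step to enterocytes to 2093 higher, and 80 interrupted regions higher. For length it gave 749 shorter in ISC, 2 of them interrupted, 1708 longer and 6670 shorter in enterocytes against E14.5 (52 and 40 interrupted), and 1637 longer and 4215 shorter against E12.5. With a library left out, flank calls ranged over 2609 to 6042 higher and 1787 to 3833 lower at the step to E14.5 (interrupted 12 to 44 and 20 to 37), and 4395 to 7064 higher and 4410 to 7537 lower at the step to ISC (lost interrupted regions 39 to 83). Length calls ranged over 1259 to 2109 longer and 1392 to 1913 shorter in ISC (interrupted shorter 5 to 12), 2243 to 5323 longer and 440 to 3563 shorter in enterocytes against E14.5 (36 to 117 and 3 to 38), and 594 to 2546 shorter against E12.5 (interrupted 5 to 12 longer and 0 to 2 shorter). A lone library was assumed to vary like the others. Flanks of 50 kb, a pseudocount of 100 bp and no filter on flank peaks kept every count within 1.5 times, and the summit distance was 221.5 bp from peak centres and 154.5 bp in regions up to 2 kb.

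The replicate numbers are not stated to pair libraries, and deviations of same-numbered libraries correlated at −0.18 to 0.19 over 31285 flanks. With the replicate block the interrupted regions shorter in ISC went from 13 to 6, and no other count moved by over 1.5 times: 32 of the lost and 43 of the new regions kept lower and higher flanks at E14.5. With 2 libraries a group and peak calls only, a weak peak below the threshold cannot be told from none.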
